A study of Oryza sativa with 36 samples.

Results

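The genes described here are 43 of 37862 rice gene IDs, selected on their levels in developing florets, where their RNA was low at every stage in a line that overexpresses OsEPF1. A gene was taken if its mean level in OsEPF1-oe florets was at most 0.5 of that in IR64 florets at each of stages 1 to 5. The level was the count relative to the library total, scaled as CPM, averaged over 3 replicates, with 0.25 CPM added. The mean over the 15 IR64 developing libraries had to be at least 1 CPM, which 20783 IDs reached. The rule names 3 IDs to leave out, of which only Os04g0457700 met the thresholds. Stages 1 to 5 therefore chose the genes, so values at those stages are given as a description. Counts of these genes that pass a test at those stages are likewise given only as a description. The mature florets were not used by the rule, and the difference between the lines there is the only one reported as a test of these genes.

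RNA was sequenced from whole florets of OsEPF1-oe, a transgenic line in the cultivar IR64 that overexpresses OsEPF1, and of IR64 itself, the wild type control. Sampling of developing florets, stages 1 to 5, fell 75 to 85 days from sowing, and that of mature florets, headed but not yet at anthesis, near day 95. With 3 libraries for each line and stage, there were 12 groups. Each developing replicate mixed RNA of 3 plants, whereas the sources used here do not give the pooling of the mature replicates, the promoter of the transgene or the number of independent lines. Both lines share the cultivar, the cabinets and the feeding.

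OsEPF1 encodes a small secreted peptide of the EPF family, which in the plant epidermis restrains entry into the stomatal lineage. The named genes of the set belong to other processes. JAZ proteins repress jasmonate responses, and their own genes are known to be induced by jasmonate and by wounding. In rice florets jasmonate is known for its part in spikelet development and in the opening of the floret. SWEET proteins export sugars, germin-like proteins lie in the cell wall, and PR10 proteins are a pathogenesis-related family.

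Library totals ran from 22372257 to 55476576 counts. The ID taken for OsEPF1, Os04g0637300, had 1111 to 3539 CPM in the 18 OsEPF1-oe libraries and 0 to 2.73 CPM in the 18 IR64 libraries. Lists of tapetum (9 genes), green tissue (7), stomatal lineage (6) and meiosis (5) genes were all detected, and held 0 of the 43 genes. The stomatal lineage list includes the 3 IDs that the rule leaves out, among them Os04g0457700, which met the thresholds. For that list the 0 thus follows from the exclusion. The summed tapetum level at stage 5 was 431 to 1203 CPM in OsEPF1-oe and 1774 to 3374 CPM in IR64, with 5 of 9 genes called lower by edgeR's quasi-likelihood test at a Benjamini-Hochberg adjusted p under 0.05. The summed green tissue level at stage 5 was 273 to 329 CPM in OsEPF1-oe and 440 to 493 CPM in IR64, with 3 of 7 genes called lower. The summed stomatal lineage level at stage 5 was 0.557 to 0.65 CPM in OsEPF1-oe and 4.43 to 4.66 CPM in IR64, with 3 of 6 genes called lower. The summed meiosis level at stage 5 was 92.6 to 154 CPM in OsEPF1-oe and 68.7 to 82.1 CPM in IR64, with 2 of 5 genes called higher. These lists thus moved with the lines at stage 5, when 351 of all 26726 tested genes were called lower and 303 higher. Other stages differed from this. At stage 3 the summed meiosis level was 79.2 to 128 CPM in OsEPF1-oe and 159 to 176 CPM in IR64. There 3 of 5 meiosis genes were called lower. At stage 1 no gene of the tapetum, green tissue and meiosis lists was called. The part of the lists in the levels below was not tested. In mature florets the summed levels of the lines overlapped for all 4 lists. In whole florets, fewer cells of a type and less RNA per cell cannot be told apart.

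A name could be given to 10 of the IDs, all from general knowledge and with a RefSeq gene of that symbol at the same relative place on the chromosome, so the values belong to the IDs. They are JAZ10 (Os03g0181100) and JAZ13 (Os10g0391400), the calmodulin-like gene CML31 (Os01g0955100), the calcium-dependent protein kinase CPK21 (Os08g0540400) and the calcium ATPase ACA7 (Os10g0418100). The others are the trehalose-6-phosphate phosphatase TPP1 (Os02g0661100), the phenylalanine ammonia-lyase ZB8 (Os02g0627100), the sugar exporter SWEET15 (Os02g0513100), the germin-like GER5 (Os08g0460000) and PBZ1 (Os12g0555500) of the PR10 family. Phenylalanine ammonia-lyase and PR10 genes have close copies among which reads may be split, so the values of ZB8 and PBZ1 are uncertain. The other 33 IDs are given by ID alone.

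Across the set, the ratio of the lines was nearer to 1 at stage 1 than at the other developing stages, and nearer still in mature florets. The median log2 ratio of OsEPF1-oe to IR64 was -1.32, -1.98, -1.63, -1.56 and -1.89 in stages 1 to 5, in that order. Over all genes of at least 1 CPM it lay between -0.02 and 0.00 at these stages. The highest of a gene's 5 ratios was at stage 1 for 29 of the 43, and the lowest was at stage 2 for 16 and at stage 5 for 15. In mature florets the median was -0.36 over the 43 genes and 0.08 over all genes, with 7 of the 43 still at a ratio of at most 0.5.

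**Figure D1:**
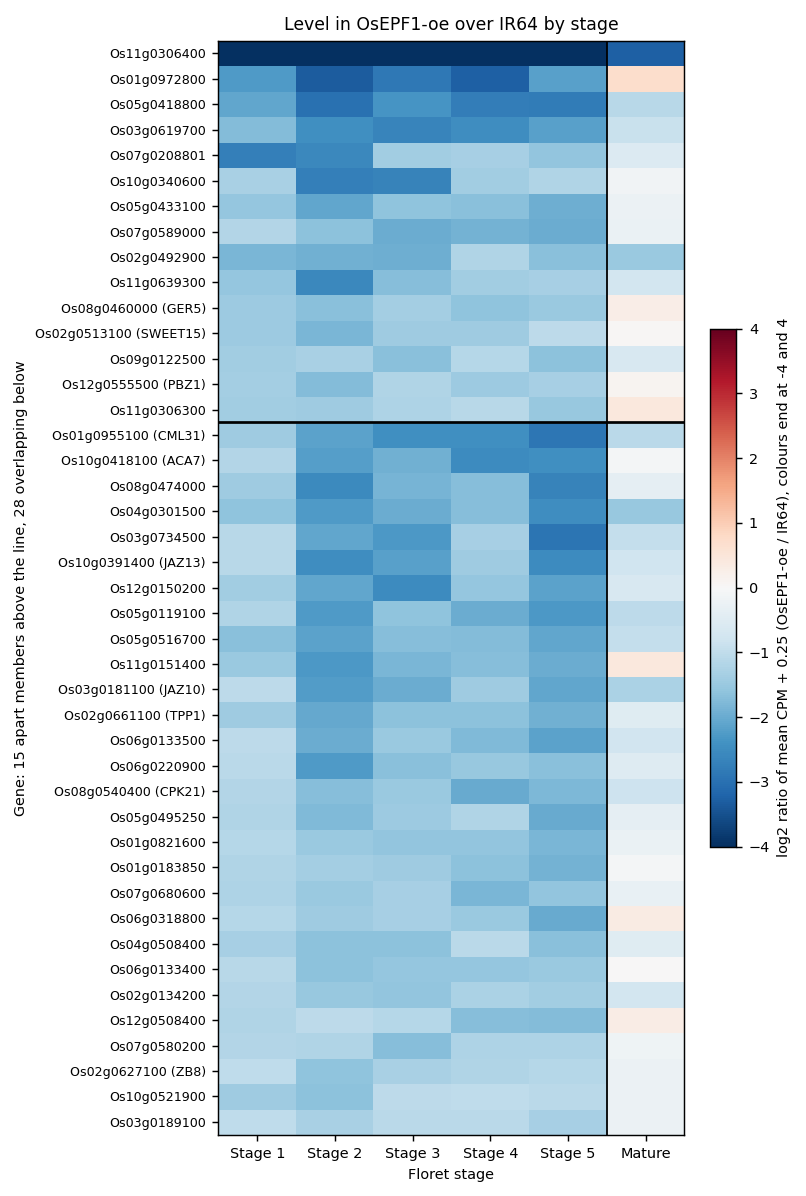
Log2 ratio of mean CPM + 0.25 in OsEPF1-oe over IR64 for each of the 43 genes (rows) at stages 1 to 5 and in mature florets (columns), with 15 genes whose libraries stood apart at every developing stage above the line and 28 that overlapped below it. Os11g0306400 is darkest throughout, and in the mature column most genes are pale, with a median of -0.36.

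The genes that met the rule fell into a pair of kinds, told apart after their values were seen. For 15 genes, all 3 OsEPF1-oe libraries lay below all 3 IR64 libraries at each of the 5 stages. These are called the apart genes. Over all 26726 tested genes, 91 had this pattern, which is 0.34%. For the other 28, the overlapping genes, the lines shared part of their range at 1 or more stages.

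Stage by stage, all 3 OsEPF1-oe libraries lay below all 3 IR64 libraries for 31 of the 43 genes at stage 1, against 7.13% of all tested genes. The number was 41 at stage 2, against 8.81% of all tested genes, and 23 at stage 3, against 7.74%. At stages 4 and 5 it was 15 each, the apart genes alone, against 10.7% and 7.28% of all tested genes. In edgeR's quasi-likelihood fit of all 36 libraries, 10 of the 43 genes were called lower at stage 1 (0.352% of all tested genes). For stages 2 and 3 the number was 14 each (0.718% and 1.03%), for stage 4 it was 12 (1.29%) and for stage 5 it was 14 (1.31%). All of these calls were of apart genes, and 0 overlapping genes were called at any of the 5 stages. The same libraries chose the genes and split them into apart and overlapping ones, so these counts only describe the set.

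The gene with the lowest ratio of all was Os11g0306400 on chromosome 11, which was nearly undetected in OsEPF1-oe and clearly detected in IR64. At stage 3 it had 0, 1 and 0 counts in the OsEPF1-oe libraries against 524, 449 and 1586 counts in the IR64 libraries. Over all 15 developing libraries the OsEPF1-oe level was 0 to 0.132 CPM with a median of 0, and the IR64 level was 3.17 to 28.6 CPM with a median of 11. No developing OsEPF1-oe library came near any IR64 library. The fold at stage 1, where OsEPF1-oe had 0 counts in all against 793 in IR64, was at least 246-fold lower, computed against a floor of 3 counts over the group. At stage 3, with 1 against 2559 counts, the ratio was 1780-fold, lower in OsEPF1-oe (95% exact interval 319 to 70349). Such bounds and intervals cover counting error only.

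A pair of other apart genes was also almost absent from developing OsEPF1-oe florets, with a mean under 0.1 CPM. Os05g0418800 had 0 to 0.227 CPM over the 15 OsEPF1-oe developing libraries and 0.471 to 3.05 CPM over the 15 of IR64. Os03g0619700 had 0 to 0.159 CPM in OsEPF1-oe and 0.466 to 1.86 CPM in IR64. The IR64 level of both is low, and their OsEPF1-oe libraries held 0 counts in total at stage 1 for Os05g0418800 and at stages 3 and 4 for Os03g0619700. There the OsEPF1-oe level was at least 23.9-fold lower at stage 1 for Os05g0418800, and for Os03g0619700 by at least 33.2-fold (stage 3) and at least 29.0-fold (stage 4).

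Os01g0972800 was low in all but 1 of the developing OsEPF1-oe libraries. It had 0.119, 0.117 and 0.0779 CPM in OsEPF1-oe at stage 4, against 3.64, 2.46 and 3.39 CPM in IR64. At stage 5 it had 2.70, 0.0440 and 0.0342 CPM in OsEPF1-oe, against 6.01, 5.80 and 3.44 CPM in IR64. The first OsEPF1-oe library of stage 5 thus stood far above the other 2 and just below the lowest IR64 library, at 68 counts against 1 and 1.

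Among the named apart genes, GER5 climbed up to stage 4 in both lines, with about the same relative distance between them at each stage. From stage 4 to stage 5 its mean went from 27.9 to 28.1 CPM in OsEPF1-oe and from 86.4 to 78.7 CPM in IR64. It had 4.42, 4.98 and 2.90 CPM in OsEPF1-oe at stage 1, against 13.9, 12.0 and 9.41 CPM in IR64, and 30.6, 27.7 and 26.0 CPM in OsEPF1-oe at stage 5, against 83.9, 73.3 and 78.8 CPM in IR64. Its ratio stayed between 0.317 and 0.391 at the 5 stages. Replicates of both lines lay close together and never met. SWEET15 climbed more steeply, with 1.38, 0.514 and 0.507 CPM in OsEPF1-oe at stage 1, against 2.95, 2.11 and 2.82 CPM in IR64. At stage 5 it had 29.8, 27.5 and 24.0 CPM in OsEPF1-oe, against 62.8, 56.0 and 50.8 CPM in IR64. The lowest IR64 library of SWEET15 was thus above the highest OsEPF1-oe library at both ends of the course.

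PBZ1 followed the same course as SWEET15. It had 0.587, 0.237 and 0.507 CPM in OsEPF1-oe at stage 1, against 1.58, 1.88 and 1.11 CPM in IR64. At stage 5 it had 12.3, 8.27 and 8.21 CPM in OsEPF1-oe, against 20.9, 26.1 and 27.0 CPM in IR64. Its ratio at the 5 stages ran from 0.302 to 0.430, and the lines did not overlap at any of them. The IR64 level of all 3 named apart genes was higher at stage 4 or 5 than at stages 1 to 3.

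Other apart genes went the opposite way and were highest at the start. Os02g0492900 had 5.69, 7.16 and 6.34 CPM in OsEPF1-oe at stage 1, against 22.9, 22.5 and 25.3 CPM in IR64, and 0.318, 0.660 and 0.513 CPM in OsEPF1-oe at stage 5, against 2.59, 2.35 and 1.43 CPM in IR64. Os11g0306300, the listed neighbour of Os11g0306400, had 1.69, 2.21 and 2.43 CPM in OsEPF1-oe at stage 1, against 5.31, 6.34 and 5.99 CPM in IR64. Both of these genes peaked at stage 1 in both lines. Os07g0208801 was level over the course in IR64, at 7.34 to 12.7 CPM, and ran from 0.593 to 5.18 CPM in OsEPF1-oe, with its lowest ratios at stage 1 (0.150) and stage 2 (0.166). The remaining 5 apart genes, Os05g0433100, Os07g0589000, Os09g0122500, Os10g0340600 and Os11g0639300, had ratios between 0.150 and 0.455 at the 5 stages.

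**Figure D2:**
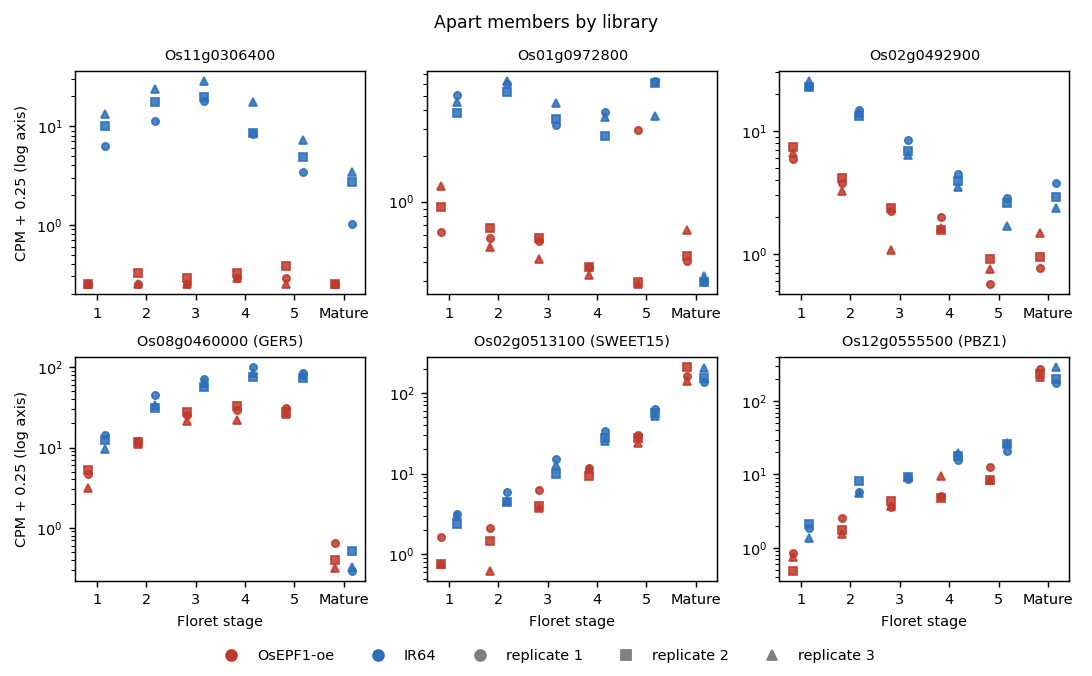
CPM + 0.25 (log axis) of 6 apart genes in every library by floret stage, with OsEPF1-oe in red left of IR64 in blue and a marker shape for each replicate number. The lines do not meet at stages 1 to 5, for example at 0 to 0.132 CPM against 3.17 to 28.6 CPM for Os11g0306400, whereas SWEET15 and PBZ1 overlap in mature florets.

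The 28 overlapping genes differed from these in how far replicates of 1 group lay from each other. Both JAZ genes, all 3 calcium-related genes, TPP1 and ZB8 are among them. JAZ10, a jasmonate repressor gene, had 16.5, 8.78 and 29.6 CPM in OsEPF1-oe at stage 2, against 161, 35.8 and 62.6 CPM in IR64. At stage 5 it had 28.8, 4.58 and 4.65 CPM in OsEPF1-oe, against 67.0, 92.3 and 3.57 CPM in IR64. At stage 2 every IR64 library was above every OsEPF1-oe library, whereas at stage 5 the third IR64 library was below all 3 of OsEPF1-oe.

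JAZ13, from the same family, had 6.48, 0.308 and 0.376 CPM in OsEPF1-oe at stage 5, against 19.2, 25.4 and 0.126 CPM in IR64. Here too the third IR64 library was the lowest of the 6. CML31, which encodes a calmodulin-like calcium sensor, had 3.34, 0.176 and 0.239 CPM in OsEPF1-oe at stage 5, against 13.7, 18.6 and 0.336 CPM in IR64. ACA7, a calcium pump gene, had 6.96, 0.264 and 0.752 CPM in OsEPF1-oe, against 25.4, 20.9 and 0.588 CPM in IR64. CPK21, a calcium-dependent kinase gene, had 1.11, 0 and 0.205 CPM in OsEPF1-oe, against 3.56, 2.53 and 0.294 CPM in IR64. In these 3 genes the first OsEPF1-oe library was the highest of its group and the third IR64 library the lowest of its own.

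TPP1, which acts in trehalose metabolism, had 25.2, 11.1 and 15.2 CPM in OsEPF1-oe at stage 5, against 94.2, 84.7 and 17.2 CPM in IR64. ZB8, at the entry to phenylpropanoid metabolism, had 13.2, 5.28 and 4.55 CPM in OsEPF1-oe, against 22.0, 25.4 and 4.83 CPM in IR64. In both genes the first OsEPF1-oe library was again the highest of its group and the third IR64 library the lowest of its own. Os11g0151400 swung widely, at 29.5, 1.23 and 0.171 CPM in OsEPF1-oe, against 59.6, 63.3 and 0.378 CPM in IR64. Os04g0301500, Os08g0474000 and Os03g0734500 had 0.336, 0.462 and 0.336 CPM in the third IR64 library of stage 5, and 20.9 to 62.1 CPM in the other 2 IR64 libraries of that stage.

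**Figure D3:**
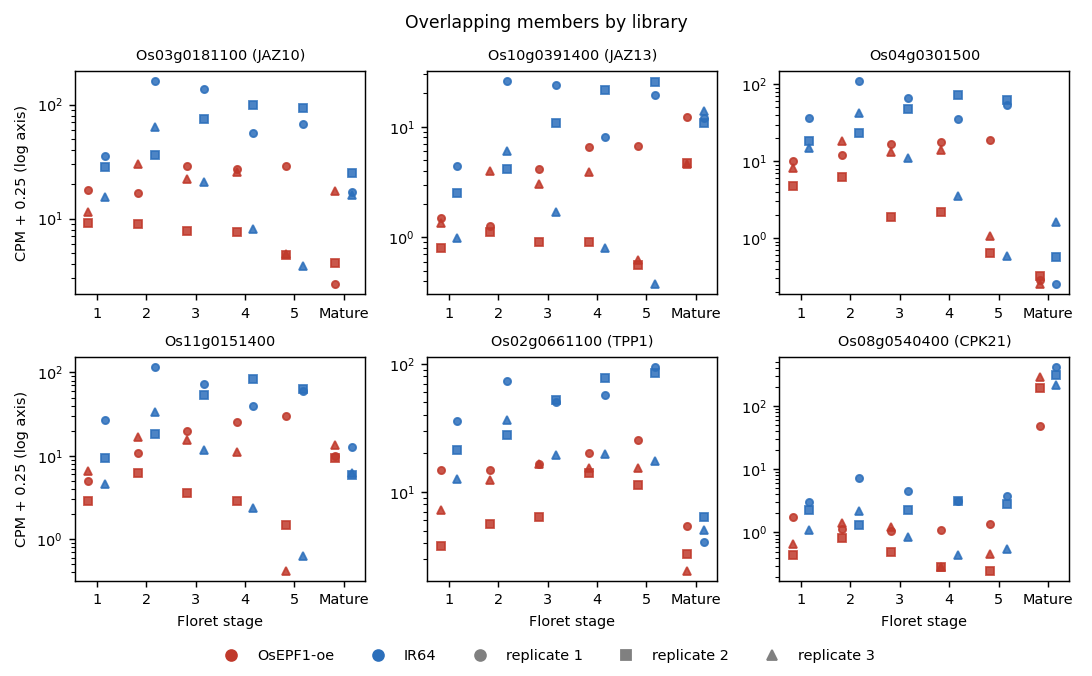
CPM + 0.25 (log axis) of 6 overlapping genes in every library by floret stage, with OsEPF1-oe in red left of IR64 in blue and a marker shape for each replicate number. At stages 4 and 5 the IR64 triangles (replicate 3) fall among or below the red points, as for JAZ10 at 3.57 CPM against 67.0 and 92.3 CPM in the other 2 IR64 libraries.

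This order was shared by the whole overlapping group. At stage 5 the median level over the 28 genes was 7.91, 1.30 and 1.14 CPM in the OsEPF1-oe libraries and 21.4, 25.4 and 0.668 CPM in the IR64 libraries. At stage 4 it was 6.37, 1.92 and 5.33 CPM in OsEPF1-oe and 13.6, 21.5 and 2.12 CPM in IR64. At stage 3 it was 6.75, 1.92 and 6.58 CPM in OsEPF1-oe and 23.6, 15.6 and 5.90 CPM in IR64. So 1 IR64 library of each of these stages, numbered 3, lay within or below the range of OsEPF1-oe. The 3 libraries share a number in the labels, which do not say what else they share.

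Earlier in development the groups were nearer to separate. At stage 2 the median was 6.07, 2.92 and 5.94 CPM in OsEPF1-oe and 28.7, 10.5 and 15.4 CPM in IR64, and at stage 1 it was 5.54, 2.57 and 2.68 CPM in OsEPF1-oe and 13.0, 9.07 and 6.26 CPM in IR64. All 6 libraries kept to their side in these medians. The third IR64 library was below the highest OsEPF1-oe library for 11, 1, 20, 28 and 28 of the 28 genes over stages 1 to 5. It was below the lowest OsEPF1-oe library for 5 of them in stage 4 and for 16 in stage 5. The other 2 IR64 libraries were above all of OsEPF1-oe for 26 of the 28 at stages 1 and 2 and for 28 at stages 3, 4 and 5.

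**Figure D4:**
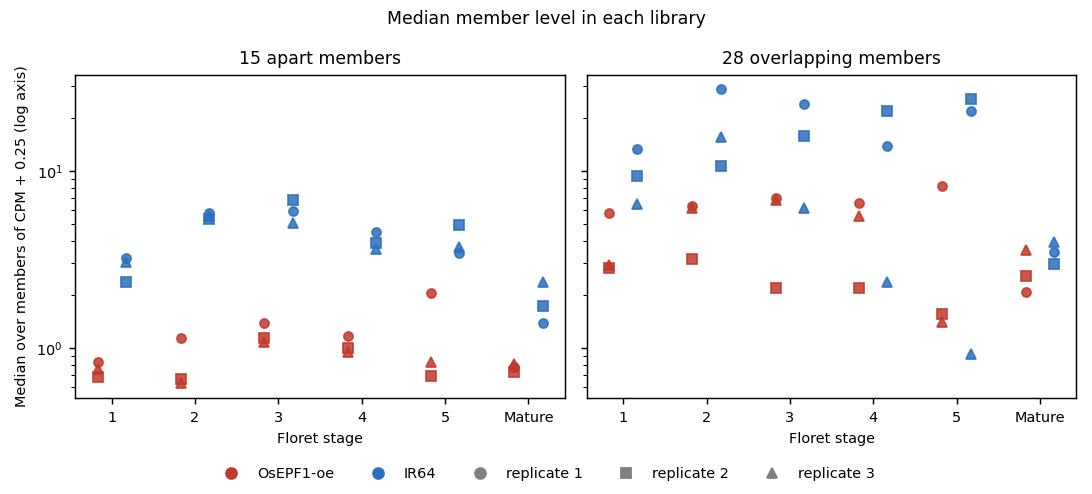
Median CPM + 0.25 (log axis) over the 15 apart genes (left) and the 28 overlapping genes (right) in every library by floret stage, with OsEPF1-oe in red left of IR64 in blue and a marker shape for each replicate number. The lines stay separate at stages 1 to 5 on the left, whereas on the right the third IR64 library has 2.12 CPM at stage 4 and, before the addition of 0.25, 0.668 CPM in stage 5.

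The spread between replicates was correspondingly wide. Overlap beside a mean ratio of at most 0.5 needs a wide spread, so the split itself sets part of this contrast. On the log2 scale, the median SD over the 28 overlapping genes at stage 5 was 1.25 in OsEPF1-oe and 2.13 in IR64. Over the 15 apart genes it was 0.33 in OsEPF1-oe and 0.30 in IR64, and over all genes of at least 1 CPM it was 0.17 in OsEPF1-oe and 0.16 in IR64. At stage 1 the overlapping genes had 0.63 in OsEPF1-oe and 0.60 in IR64. The wide spread was thus seen in both lines and grew over the stages in IR64, whereas that of the apart genes lay between 0.19 and 0.38 at the 5 stages in both lines.

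Within groups the overlapping genes moved as 1. The deviations of log2(CPM + 0.25) from the group mean over the 30 developing libraries had a median Pearson r of 0.918 between pairs of overlapping genes, and it was above 0 in 378 of 378 pairs. Between pairs of apart genes the median was 0.03, with 59 of 105 pairs above 0. In the 6 mature libraries it was 0.09 between overlapping genes. Each of the 28 correlated with their mean deviation, of which it is a part, at 0.885 to 0.989. Of 20755 other genes of at least 1 CPM, 460 did so above 0.8, which is 2.22%, among them the apart gene Os07g0589000 at 0.933. Os11g0306400 went the other way, at -0.732. These correlations describe genes that share the same libraries. The developing libraries also chose the genes and split them into apart and overlapping ones, so the contrast between the kinds is not a separate result.

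Library totals and cell type lists can be set beside this swing. At stage 5 the totals of the IR64 libraries were 27786426, 28471212 and 23806729 counts, and their median deviation over all genes was within 0.01 of 0 on the log2 scale. The summed tapetum level was 1203, 536 and 431 CPM in OsEPF1-oe and 3374, 2500 and 1774 CPM in IR64, so that in each line the first library was the highest and the third the lowest. The first OsEPF1-oe library was also the highest of its group in the overlapping genes, and the third IR64 library the lowest of its own. At stage 4 the summed tapetum level was 385, 285 and 230 CPM in OsEPF1-oe and 650, 555 and 426 CPM in IR64, and there the third OsEPF1-oe library was the lowest in this list but not in the overlapping genes. The summed meiosis level at stage 5 was 92.6, 128 and 154 CPM in OsEPF1-oe and 68.7, 69.7 and 82.1 CPM in IR64, the opposite order to that of the tapetum. The summed green tissue level at stage 5 was 329, 314 and 273 CPM in OsEPF1-oe and 493, 440 and 490 CPM in IR64. The summed stomatal lineage level at stage 5 was 0.557, 0.572 and 0.65 CPM in OsEPF1-oe and 4.64, 4.43 and 4.66 CPM in IR64, nearly level within each line. The part of any of these in the swing was not tested.

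The rule took all of the overlapping genes without the third IR64 or the first OsEPF1-oe library. Leaving out the lowest IR64 or the highest OsEPF1-oe library of a stage can only lower the ratio there. In the medians above, the third IR64 library was the lowest at every stage but stage 2, and the first OsEPF1-oe library the highest at all 5. The order of the libraries thus largely set this outcome, and these counts only describe the set. Leaving out any other replicate number of either line lost a larger part of the overlapping than of the apart genes. Without the third IR64 library at all 5 stages, the rule took 61 genes, which held 14 of the 15 apart and 28 of the 28 overlapping genes. Without the first IR64 library at all 5 stages it took 22 genes, with 13 of the apart and 7 of the overlapping genes, and without the second it took 25, with 13 and 10 of them. Without the first OsEPF1-oe library at all 5 stages it took 86, with 15 and 28 of them. Without the second OsEPF1-oe library it took 24, with 14 and 10, and without the third it took 31, with 13 and 15. A ratio of at most 0.25 left 3 genes, all apart.

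The genes nearest to the limit of the rule were ZB8 (Os02g0627100), with a highest ratio of 0.49993 at stage 1, Os03g0189100, with 0.499 at stage 1, and Os10g0521900, with 0.496 at stage 4. Just outside it lay Os01g0747300 at 0.506 at stage 5, Os03g0232400 at 0.507 at stage 1 and Os02g0193300 at 0.507 at stage 1. All 3 just inside are overlapping genes.

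The stage at which IR64 expressed these genes most was most often stage 5 or stage 2. In OsEPF1-oe the mean level was highest at stage 5 for 13 of the 43 genes and at stage 2 for 12, with 3, 8 and 7 genes for stages 1, 3 and 4. In IR64 stage 5 was the highest for 19 genes and stage 2 for 15, with 2, 5 and 2 genes for stages 1, 3 and 4. Of these, 13 at stage 5 and 14 at stage 2 were overlapping genes, whose means depend on the wide spread between replicates. Among the apart genes it was 6 at stage 5 and 1 at stage 2. Peak stages over all genes are not given for comparison. Both lines peaked at the same stage for 24 of the 43. JAZ10 is an exception, with its peak at stage 4 in OsEPF1-oe and at stage 2 in IR64.

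Os04g0457700, from the list of stomatal lineage genes and left out by the rule, had 0 CPM in all 3 OsEPF1-oe libraries of stage 5, against 1.12, 1.30 and 0.882 CPM in IR64. Over the 18 IR64 libraries, the gene of the 43 with the profile of log2(CPM + 0.25) most like it was Os11g0306300, at a Pearson r of 0.981. The next were Os01g0183850 (0.867), Os04g0508400 (0.861), Os01g0972800 (0.859) and Os11g0306400 (0.830). The stages are shared by all these profiles.

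In gene order the 43 were scattered over all 12 chromosomes. Chromosomes 2 and 5 held 5 each, chromosomes 1, 3, 6, 7, 10 and 11 held 4 each, chromosomes 8 and 12 held 3 each, chromosome 4 held 2 and chromosome 9 held 1. Chromosome 1 held 9.3% of the 43 against 14.1% of all IDs of at least 1 CPM, and chromosome 11 held 9.3% against 4.89%. No run of 3 or more was found with at most 10 listed IDs between neighbours. A pair of adjacent IDs occurred at 2 places, Os06g0133400 with Os06g0133500 on chromosome 6 and Os11g0306300 with Os11g0306400 on chromosome 11, with 0 IDs between them. If adjacent genes overlap, their reads cannot be told apart here.

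The members of the pairs differed in level and ratio. Os11g0306300 had 1.13, 0.893 and 1.46 CPM in OsEPF1-oe at stage 3, against 2.87, 3.68 and 2.76 CPM in IR64. Its ratio at that stage was 0.421, while that of Os11g0306400 was 0.0119. On chromosome 6 both genes are overlapping genes, with ratios at stage 5 of 0.358 for Os06g0133400 and 0.224 for Os06g0133500.

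Genes that lie beside the 43 mostly did not share their difference. Of 486 genes of at least 1 CPM within 10 listed IDs of one of the 43, 5 were at a ratio of at most 0.5 at 3 or more stages, which is 1.03%. Over all 20740 others of at least 1 CPM it was 166, or 0.80%. One of the 5, Os07g0589200 near Os07g0589000, had 0.518, 1.31 and 0.544 CPM in OsEPF1-oe at stage 1, against 8.31, 7.96 and 7.23 CPM in IR64. At stage 5 it had 9.07, 6.69 and 3.97 CPM in OsEPF1-oe, against 9.43, 5.44 and 5.00 CPM in IR64. The lines were apart at stage 1 and overlapped at stage 5, with ratios of 0.129 and 0.993. Another of the 5 was JAZ9 (Os03g0180800), near JAZ10. JAZ11 (Os03g0180900) also lies near JAZ10, and JAZ12 (Os10g0392400) lies near JAZ13. The ratios of JAZ9, JAZ11 and JAZ12 were 0.105, 0.145 and 0.201 at stage 2, and 1.21, 1.03 and 0.567 at stage 5. The mirrored rule, at least 2-fold higher in OsEPF1-oe at all 5 stages, took 53 genes, and 2 of the 43, CML31 and Os12g0508400, lay within 10 listed IDs of one of them.

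**Figure D5:**
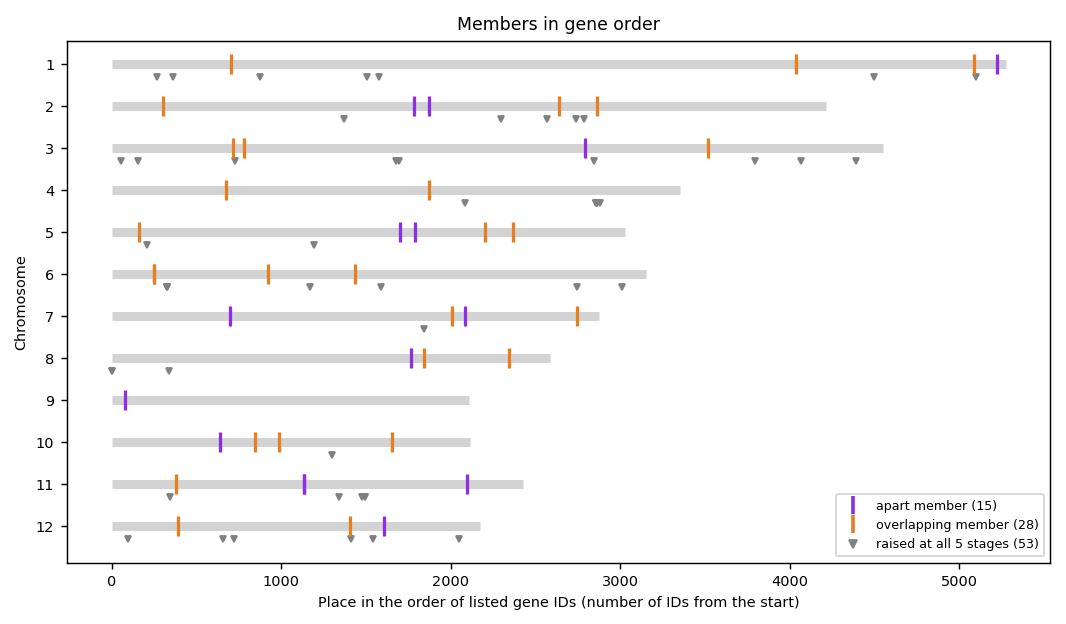
Place of the 43 genes in the order of listed gene IDs (number of IDs from the start) on each of the 12 chromosomes, with apart genes in purple, overlapping genes in orange and the 53 genes at least 2-fold higher in OsEPF1-oe at all 5 stages as grey triangles. Chromosomes hold between 1 and 5 of the 43, and the 2 adjacent pairs on chromosomes 6 and 11 fall on a single tick each.

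The mature florets give the tested comparison. Of the 43 genes, 3 were called lower and 0 higher in OsEPF1-oe by edgeR's quasi-likelihood test at a Benjamini-Hochberg adjusted p under 0.05, against 1.25% of all 26726 tested genes called lower. All 3 are apart genes. At an unadjusted p under 0.05 the counts were 7 lower and 1 higher, all of them apart genes, against 9.17% lower and 5.7% higher of all tested genes. By DESeq2 they were 4 lower, against 2.66% of 25109 genes, and 0 higher. The fitted log2 change was below 0 for 37 of the 43 and above 0 for 6, and over all tested genes it was below 0 for 54.3%. By the ratio of means plus 0.25, 34 of the 43 were below 1 and 9 above it.

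This fit takes its spread from all 36 libraries, the developing ones included, whose spread within groups sets the overlapping genes apart from the others. The median SE of the mature log2 change was 1.02 over the 28 overlapping genes, 0.42 over the 15 apart genes and 0.21 over all tested genes, so nothing is read from the lack of calls among overlapping genes. When only the 6 mature libraries were fitted, 33 of the 43 genes were tested and none was called, with 8 genes called in all. At an unadjusted p under 0.05, 9 of the 33 were then lower and 0 higher, against 4.33% lower of all 24259 genes tested. These 9 were 5 of 11 apart and 4 of 22 overlapping genes.

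Os11g0306400 remained undetected in mature OsEPF1-oe florets, at 0, 0 and 0 counts against 18, 55 and 86 counts in IR64. Its level in OsEPF1-oe was at least 65.4-fold lower (edgeR quasi-likelihood test, adjusted p = 4.62e-05, 3 libraries each). Os02g0492900 had 0.524, 0.701 and 1.23 CPM in OsEPF1-oe, against 3.50, 2.64 and 2.1 CPM in IR64, with a log2 change of -1.84 ± 0.30 (SE; edgeR adjusted p = 0.000767). Os05g0418800 had 0.555, 0.221 and 0.531 CPM in OsEPF1-oe, against 1.08, 1.48 and 1.14 CPM in IR64, with a log2 change of -1.60 ± 0.41 (edgeR adjusted p = 0.0400). In these 3 genes each OsEPF1-oe library was below each IR64 library. The call of Os05g0418800 was lost without mature OsEPF1-oe replicate 2 (edgeR adjusted p = 0.172), without mature IR64 replicate 2 (0.113) and without mature IR64 replicate 3 (0.0778).

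Os03g0619700, almost absent from developing OsEPF1-oe florets, had 0 CPM in all 3 mature OsEPF1-oe libraries, against 0.346, 0 and 0.294 CPM in IR64. Its level in OsEPF1-oe was at least 6.58-fold lower, which edgeR did not call (adjusted p = 0.0610) and DESeq2 did. Os07g0208801 had 8.11, 6.53 and 5.21 CPM in OsEPF1-oe, against 11.8, 10.8 and 7.14 CPM in IR64, with a log2 change of -0.68 ± 0.24 (edgeR adjusted p = 0.139). Its groups overlapped in mature florets.

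In all, each OsEPF1-oe library was below each IR64 library in mature florets for 7 of the 43 genes, against 4.07% of all tested genes. Beside the 3 called genes these were Os09g0122500 of the apart genes and CML31, Os06g0220900 and Os12g0150200 of the overlapping genes. Os12g0150200 had 7.22, 7.89 and 9.56 CPM in OsEPF1-oe, against 13.7, 14.2 and 10.6 CPM in IR64, with a log2 change of -0.74 ± 1.08 (edgeR adjusted p = 0.791). The error of that change is large beside its size, and the fit takes the spread from all 12 groups.

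Several genes of the set had mature levels far above their developing levels, with lines that overlapped. SWEET15 had 163, 209 and 139 CPM in mature OsEPF1-oe florets, against 135, 154 and 202 CPM in IR64, with a log2 change of -0.05 ± 0.25 (edgeR adjusted p = 0.953). PBZ1 had 272, 235 and 217 CPM in OsEPF1-oe, against 176, 202 and 292 CPM in IR64, with a log2 change of -0.01 ± 0.22 (edgeR adjusted p = 0.994). Neither gene shows in mature florets the separation that it had at stages 1 to 5. ZB8 had 333, 160 and 147 CPM in OsEPF1-oe, against 269, 249 and 242 CPM in IR64. CPK21 had 47.2, 191 and 284 CPM in OsEPF1-oe, against 411, 312 and 212 CPM in IR64, with a log2 change of -0.92 ± 0.67 (edgeR adjusted p = 0.561). CPK21 averaged 174 ± 119 CPM in OsEPF1-oe and 312 ± 99.4 CPM in IR64 (SD, n = 3 each), and the groups overlapped.

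Both JAZ genes and TPP1 did not pass the test either. JAZ10 had 2.41, 3.84 and 17.3 CPM in mature OsEPF1-oe florets, against 17, 24.6 and 15.8 CPM in IR64, with a log2 change of -1.39 ± 0.97 (edgeR adjusted p = 0.542). JAZ13 had 11.9, 4.43 and 4.35 CPM in OsEPF1-oe, against 11.8, 10.6 and 13.8 CPM in IR64, with a log2 change of -0.94 ± 1.15 (edgeR adjusted p = 0.753). In each gene 2 OsEPF1-oe libraries were below all of IR64 and 1 was within the IR64 range. TPP1 had 5.18, 3.06 and 2.19 CPM in OsEPF1-oe, against 3.8, 6.17 and 4.82 CPM in IR64, with a log2 change of -0.62 ± 0.66 (edgeR adjusted p = 0.710).

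GER5 was nearly silent in mature florets of both lines, at 0.401, 0.148 and 0.0664 CPM in OsEPF1-oe, against 0.0432, 0.268 and 0.0736 CPM in IR64, far under its stage 5 level. Lower levels in mature than in developing florets were common in the set. In OsEPF1-oe 20 of the 43 genes were at least 2-fold lower in mature florets than over stages 1 to 5, 13 at least 2-fold higher and 10 in between. In IR64 30 were at least 2-fold lower, 7 at least 2-fold higher and 6 in between. Over all genes of at least 1 CPM, 32.4% were that much lower and 14.0% that much higher in OsEPF1-oe, and 36.1% lower and 13.1% higher in IR64. Since the rule chose genes with a low developing level in OsEPF1-oe, the counts of the lines describe the set and are not compared.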

How the data were processed

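Poly(A) RNA of florets was sequenced in 36 libraries, 2 lines by 6 stages with 3 replicates each. The authors deposited raw counts of reads, whole numbers without any normalization, for 37862 IDs. Per the submitters' processing notes, Trimmomatic 0.38, HISAT2 2.1.0, Subread 2.0.0 and featureCounts were used with the build IRGSP-1.0. The sources used here do not give the strand setting or the treatment of reads with several places. Where genes overlap, also in antisense, their reads cannot be told apart, and near-identical copies are uncertain. The labels call replicates biological.

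From the deposited counts, CPM by column sum and ratios of group means plus 0.25 were computed in Python 3.11.15 with pandas 2.3.3. Counts were tested in R 4.3.3 with edgeR 4.0.16 (filterByExpr on 12 groups, TMM, robust quasi-likelihood fit of 36 libraries with 24 residual degrees of freedom, Benjamini-Hochberg over 26726 genes, all 43 members included), with DESeq2 1.42.0 as an alternative. The procedure was checked on simulated counts, drawn with the same spread setting for all genes. That check does not cover the wide spread of the overlapping genes, or changes in genes of few counts. Chromosome and order come from the gene ID. The RefSeq table matched 1 ID, so 21 names tried from general knowledge, 10 of them for members, were kept where RefSeq had the symbol on the same chromosome at a relative rank within 0.02.

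The members and lists were chosen with earlier results of these data known. Named are the ID of OsEPF1, the 12 members of highest IR64 developing level, the 10 of lowest mean ratio, the 3 just inside and outside the limit, members with a symbol, those called in mature florets and the 5 most like Os04g0457700. All other IDs, among them the rest of the apart genes, the neighbours and those without overlap in mature florets, were chosen after their values were seen.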

Additional observations from a re-analysis of the deposited data

Results flagged for a closer look

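Os01g0972800 differed between developing and mature florets in the direction of its difference between the lines. It was lower in every OsEPF1-oe library than in every IR64 library at all 5 developing stages, and higher in every OsEPF1-oe library than in every IR64 library in mature florets. There it had 0.154, 0.184 and 0.398 CPM in OsEPF1-oe, from 5, 5 and 12 counts, against 0.0432, 0.0447 and 0.0736 CPM in IR64, from 1, 1 and 2 counts. The ratio of the means with 0.25 CPM added was 1.63. The difference between stages was not tested, since the developing libraries chose the gene, and the mature difference was not called by edgeR (adjusted p = 0.457).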

How the results depend on the processing

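The 541 genes called in mature florets became 976 by DESeq2, 8 in a fit of the 6 mature libraries alone, and 274 to 792 when 1 mature library was left out, with 287 without OsEPF1-oe replicate 2 and 274 without IR64 replicate 2. The 3 members called lower became 0 in the fit of 6 libraries, which tested 33 members, with fitted log2 changes of -8.93 (Os11g0306400), -1.82 (Os02g0492900) and -1.58 (Os05g0418800), and 2 to 3 when 1 library was left out. Os05g0418800 was replaced by Os03g0619700 without IR64 replicate 2 and by Os11g0639300 without IR64 replicate 3. It also missed the threshold with no filter on low counts (edgeR adjusted p = 0.0524). Correlations of same-numbered deviations between the lines were -0.11, 0.23 and -0.13 in the mature samples, and 0.25, 0.14 and 0.18 at stage 5. They cannot show whether same-numbered libraries share plants or handling. With the replicate block, 622 genes and 3 members were called in 36 libraries, and 1 gene and 0 members in the 6 mature libraries.

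The rule's 43 genes became 19 with 1 CPM added, 14 at a ratio of at most 0.4 and 3 at 0.25. They became 28 to 70 when 1 developing library was left out, with 70 without OsEPF1-oe stage 1 replicate 1 and 28 without OsEPF1-oe stage 1 replicate 2 or IR64 stage 4 replicate 2. Settings chosen after seeing the data left out 1 replicate number at all 5 stages, which gave 86, 24 and 31 genes without OsEPF1-oe replicate 1, 2 or 3 and 22, 25 and 61 without IR64 replicate 1, 2 or 3. The 3 nearly absent members became 5 with 0.1 CPM added, and 1 with 1 CPM added or with at least 2 or 5 CPM in IR64. Members in positional runs, 0 at runs of 3, were 4 at runs of 2, a setting added later. The cause of these shifts was not tested. Levels under 1 CPM rest on few counts, and 3 libraries a group leave the wide spread of the overlapping genes poorly known.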

Other observations

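Since 2 members, JAZ10 and JAZ13, belong to the JAZ family of jasmonate repressors, the other 11 JAZ genes were looked up after the data had been seen. JAZ9 (Os03g0180800), which lies near JAZ10 on chromosome 3, was called lower in OsEPF1-oe at stage 2 (log2 change -3.77 ± 0.67, edgeR adjusted p = 0.00169) and at stage 3 (-2.01 ± 0.46, edgeR adjusted p = 0.0173), and no other of the 10 that were tested was called at any stage (JAZ5 did not pass the filter on low counts). Its mean level was 0.422 CPM in OsEPF1-oe and 6.17 CPM in IR64 at stage 2, and 59.4 CPM in OsEPF1-oe and 49.2 CPM in IR64 at stage 5. The median log2 ratio of the 11 over stages 1 to 5 was 0.00, -0.37, -0.21, -0.13 and 0.00, and it was -0.15 in mature florets. Of the 11, 9 were below a ratio of 1 and 3 at or below 0.5 at both stage 2 and stage 3. Over all 20783 genes of at least 1 CPM, 10289 were below 1 and 378 at or below 0.5 at stage 2. At stage 3 these numbers were 11306 and 423. At stages 1, 4 and 5, 4, 8 and 5 of the 11 were below 1, with 1, 0 and 0 at or below 0.5. JAZ2 and JAZ5, among the 11, had under 1 CPM in developing IR64 florets, so they are not among the 20783. JAZ2, counted below 1 at stages 2 and 3, had only 0.0262 and 0.0690 CPM in IR64 there. Beside JAZ9, those at or below 0.5 at stages 2 and 3 were JAZ11 (Os03g0180900), with ratios of 0.145 and 0.220, and JAZ12 (Os10g0392400), with 0.201 and 0.237. JAZ11, like JAZ9, lies near JAZ10, and JAZ12 lies near JAZ13 on chromosome 10. The JAZ genes at or below 0.5 at these stages thus all lie near 1 of the 2 members. At stage 2 JAZ11 had 0.0141 CPM in OsEPF1-oe, with a log2 change of -6.46 ± 2.76 (SE). JAZ12 correlated at 0.886 with the mean deviation of the overlapping genes, so it shared their swing between replicates. JAZ1 (Os04g0653000), among the flat ones, had 215 CPM in OsEPF1-oe and 206 CPM in IR64 at stage 3. The families of the other members were not looked at in this way.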
